A study of Homo sapiens with 10 samples.

Results

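The genes examined were 10 members of the BCL2 family, the proteins that decide whether the outer membrane of the mitochondrion stays sealed. They were the rows of the deposited table whose symbol was BCL2, BCL2L1, MCL1, BCL2A1, BCL2L2, BCL2L11, BAX, BAK1, BBC3 or PMAIP1, which gave 10 of the 20591 genes in the table. Bulk RNA sequencing covered 6 mixtures of 4 human blood cancer lines, made in vitro, and 1 pure library of each line: HL60 (acute myeloid leukaemia with promyelocytic features), K562 (chronic myeloid leukaemia in blast crisis), SUDHL4 (diffuse large B-cell lymphoma) and THP1 (acute monocytic leukaemia). All 10 libraries carried the genotype label WT and the treatment label None, and all were taken at day 0 from cells kept in RPMI with 10% serum. The series was built to separate the lines in pooled material by their expression. The sources used here give neither the ratios of the mixtures nor which of the 2 library kits named in the labels (SMARTer stranded total RNA or TruSeq stranded mRNA) made which library.

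With 1 library in every group, nothing here measures how replicates vary, and differences between libraries carry no p-value. Intervals are exact 95% intervals of the reads and cover counting error only. The libraries held between 24985570 reads (mixture 5) and 36607612 reads (mixture 1), and all 10 genes reached 5 normalised CPM in at least 1 pure line, as did 11717 of all genes. Lineage markers were checked first. The SUDHL4 list of B-cell genes was higher in SUDHL4 for 6 of 6 genes, the erythroid list in K562 for 5 of 6 and the monocyte list in THP1 for 5 of 6. Of 6 promyelocyte genes, MPO and CEBPE were higher in HL60 and the other 4 in THP1. The 3 T-cell genes in the table stayed under 5 normalised CPM in every pure line. Of 4 stromal genes only COL1A2 reached that level, at 21.9 normalised CPM in K562.

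Proteins of the family fall into 3 classes. The survival proteins BCL-2, BCL-XL (gene BCL2L1), MCL-1, BFL-1 (gene BCL2A1) and BCL-w (gene BCL2L2) bind and restrain the pore formers BAX and BAK (gene BAK1). BH3-only proteins, among them BIM (gene BCL2L11), PUMA (gene BBC3) and NOXA (gene PMAIP1), occupy the groove of the survival proteins, and BIM and PUMA can also activate the pore formers, after which cytochrome c leaves the mitochondrion and caspases are switched on. Blood cancers often rest on 1 or another survival protein, and BH3 mimetic drugs such as venetoclax, which blocks BCL-2, are built on that dependence. Messenger RNA levels do not give protein levels, and MCL-1 in particular is a short-lived protein.

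The promoters of 3 of the genes are shown, each from a gene with a different pattern: BCL2L1 was highest in K562, PMAIP1 was highest in SUDHL4, and BAX varied little. None of the 3 is a gene called lower in a line, a pattern also described below. RefSeq promoter sequences (GRCh38.p14) matched 8 of the 10 genes by symbol. Each line runs 5′ to 3′ on the gene's own strand and ends at the base before the annotated gene, and the capitals mark TATAAA in BCL2L1, GGGCGG or its reverse complement in PMAIP1, and CACGTG in BAX.
BCL2L1: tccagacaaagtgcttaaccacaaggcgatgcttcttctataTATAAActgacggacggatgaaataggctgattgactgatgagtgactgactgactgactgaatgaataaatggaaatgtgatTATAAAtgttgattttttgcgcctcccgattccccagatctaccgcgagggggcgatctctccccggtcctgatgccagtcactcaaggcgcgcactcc
PMAIP1: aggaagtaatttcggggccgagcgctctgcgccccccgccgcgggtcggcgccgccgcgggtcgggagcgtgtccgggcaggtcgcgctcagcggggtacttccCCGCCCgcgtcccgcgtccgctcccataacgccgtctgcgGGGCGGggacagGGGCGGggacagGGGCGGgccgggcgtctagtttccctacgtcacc
BAX: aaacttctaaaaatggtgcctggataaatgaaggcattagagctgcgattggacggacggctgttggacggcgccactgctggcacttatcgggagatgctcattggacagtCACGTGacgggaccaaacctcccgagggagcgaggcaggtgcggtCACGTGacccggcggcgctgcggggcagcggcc
The stretches lie at chr20:31723990-31724213 (minus strand) for BCL2L1, chr18:59899746-59899947 (plus strand) for PMAIP1 and chr19:48954625-48954814 (plus strand) for BAX. They differed in base composition, with 47.8% G and C in the BCL2L1 stretch, 76.2% in PMAIP1 and 61.1% in BAX. The motifs below, chosen with the expression values known, were searched on both strands of the 250 bases before each of 27305 RefSeq gene starts. TATAAA stood 2 times in the BCL2L1 window, with first bases at -208 and -125 from the RefSeq start, and occurred in 11.1% of all windows. GGGCGG, the GC box, stood 4 times in PMAIP1 and occurred in 42.3% of windows. CACGTG, the E-box that MYC can bind, stood 4 times in BAX, of which the 2 outside the annotated gene are in the printed stretch, and occurred in 6.49% of windows. TTCNNNGAA (6.78% of windows), the core that STAT factors bind, and AGATAA (9.37% of windows), a GATA-type motif, had no match in these 3 windows, which says only that those letters are not there. The motifs were not particular to the genes named with them. GGGCGG also stood in the windows of BAX, BCL2L11 and BAK1, TATAAA and TTCNNNGAA in that of BCL2A1, and CACGTG in that of BBC3.

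Across the pure lines, 5 of the 10 genes were called higher in 1 line, where the call needs at least 5 normalised CPM and a log2(value + 1) at least 1 above each of the other lines. The same call was met by 28.5% of all genes with 5 normalised CPM in a pure line. BCL2L1 and BBC3 were called in K562, where 9.22% of genes were, and BCL2A1, BCL2L11 and PMAIP1 in SUDHL4, where 7.5% were. A gene was called lower in a line when it lay at least 1 below each of the others on the same scale and all others held 5 or more. Of the 10 genes, 3 were called lower: BCL2 and BCL2L11 in K562 and BCL2L2 in SUDHL4. Lower calls took in 16% of all genes, 4.44% in K562 and 5.1% in SUDHL4. None of the 10 was called in HL60, where 3.35% of genes were called higher and 2.06% lower, or in THP1, where 8.44% were called higher and 4.44% lower. The distance between highest and lowest line had a median of 2.62 on the log2(value + 1) scale over the 10 genes, beside 1.69 over all genes with 5 in a pure line.

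**Figure D1:**
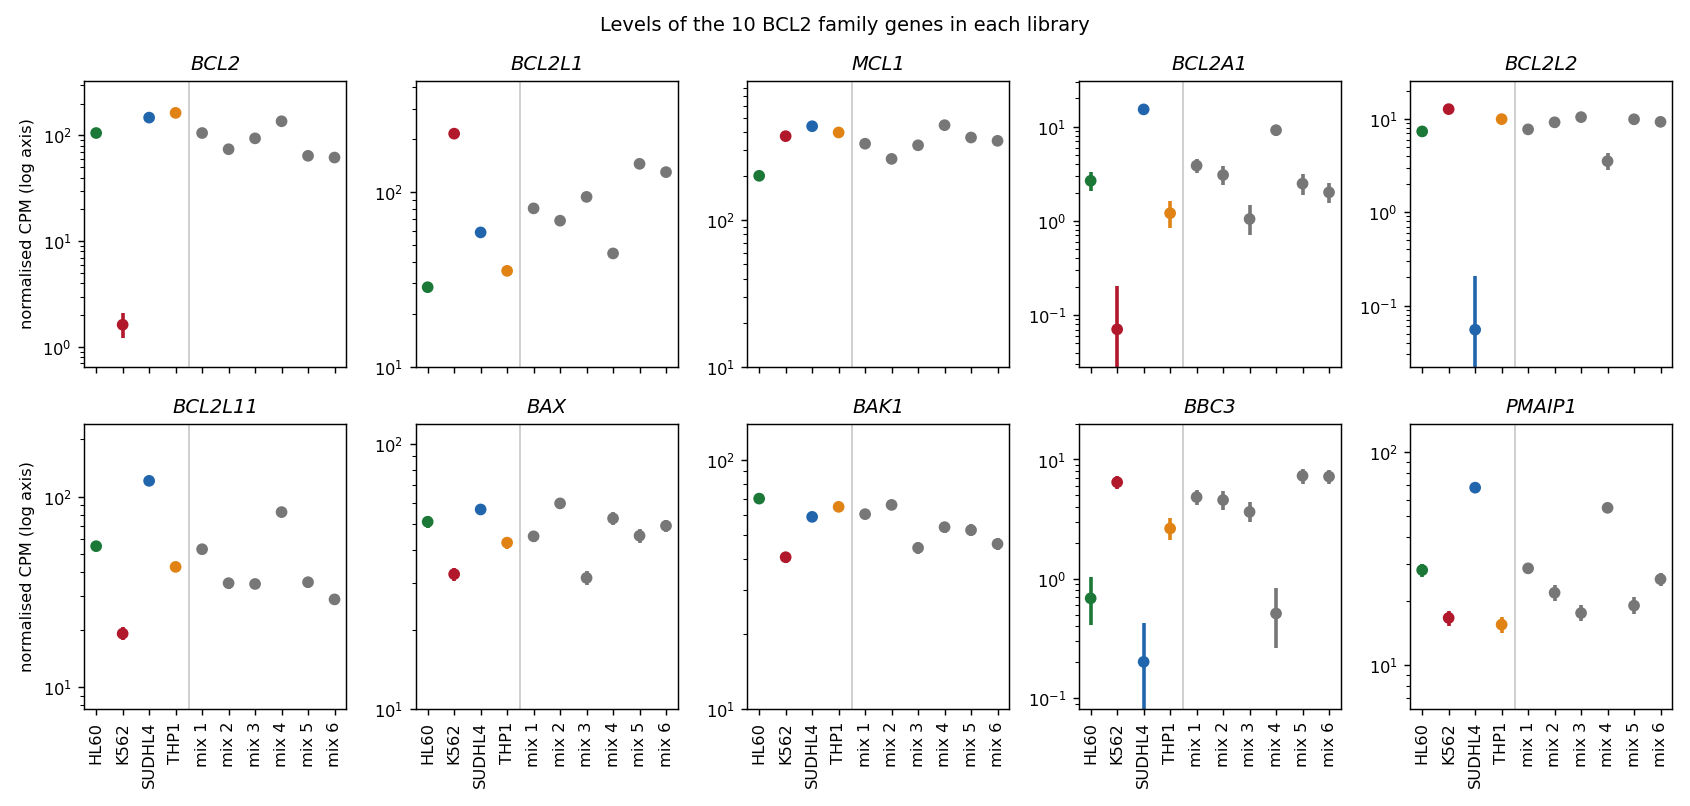
Level of each of the 10 genes in normalised CPM (log axis, with its own scale in each panel) in the 4 pure lines (coloured) and the 6 mixtures (grey). Points are single libraries and bars are exact 95% Poisson intervals of the reads, hidden where smaller than the point; BCL2 stands at 1.62 in K562 and above 100 in the other lines, and BCL2L1 at 216 in K562 and at most 58.7 in the others.

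Among the survival genes, BCL2, first known from the translocation that activates it in follicular lymphoma, had the widest range on the log2(value + 1) scale. As plain folds of highest over lowest line, BCL2 (101) came after BCL2A1 (216) and BCL2L2 (230.4), whose lowest levels rest on 2 reads and 1 read. It is annotated on the minus strand of chromosome 18 (GRCh38, 63123346 to 63320128). K562 held 1.62 normalised CPM (1.22 to 2.09, 57 reads), against 163 in THP1, 147 in SUDHL4 and 105 in HL60. The lowest of those, HL60, lay 64.9-fold above K562 (50.4 to 86.6), and the range of 5.97 on the log2(value + 1) scale was wider than that of 94.5% of genes. In the mixtures BCL2 ran from 61.8 in mixture 6 and 64.1 in mixture 5 through 74.0, 93.8 and 105 in mixtures 2, 3 and 1 to 136 in mixture 4, so every mixture lay between K562 and THP1.

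BCL2L1, which encodes BCL-XL and by alternative splicing the pro-apoptotic BCL-XS, lay the other way round. It is on the minus strand of chromosome 20 (31664452 to 31723989). K562 held 216 normalised CPM, against 35.4 in THP1, 58.7 in SUDHL4 and 28.5 in HL60. K562 was 3.67-fold above SUDHL4, the next line (3.48 to 3.88), and the other 3 lines also stood apart from each other beyond counting error. Mixtures 5 and 6 held 145 and 129.9, mixtures 1, 2 and 3 held 80.6, 68.5 and 93.8, and mixture 4 held 44.5. Gene counts do not separate BCL-XL from BCL-XS, and 1424 exon bases are shared with ABALON on the opposite strand, which is not analysed here.

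MCL1, which encodes the short-lived survival protein MCL-1, was high in every library. It is on the minus strand of chromosome 1 (150574551 to 150579738). HL60 held 201 normalised CPM, K562 375, SUDHL4 438 and THP1 397, and no line passed a call. HL60 stood lowest, 0.90 below K562 on the log2(value + 1) scale, and it passed the call for lower when library totals served as the denominator. The range of 1.12 was wider than that of 28.6% of genes only. MCL1 stood above 93.9% of the genes with reads in HL60, the line where it ranked lowest, and above 98.1% in THP1. Mixtures ran from 262 in mixture 2 to 445 in mixture 4.

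BCL2A1 and BCL2L2 were low genes with opposite extremes. BCL2A1, a target of NF-kappaB in lymphoid cells, is on the minus strand of chromosome 15 (79960889 to 79971446) and held 15.3 normalised CPM in SUDHL4, against 2.66 in HL60, 0.0706 in K562 and 1.21 in THP1. SUDHL4 was 5.73-fold above HL60 (4.51 to 7.42), and the K562 value rests on 2 reads. BCL2L2, which encodes BCL-w, is on the plus strand of chromosome 14 (23298790 to 23311759) and held 0.0551 in SUDHL4, a single read, against 7.32 in HL60, 12.7 in K562 and 9.92 in THP1. HL60 was 133-fold above SUDHL4 on the deposited values, with a counting interval of 35.3 to 7896 because of that single read. Mixture 4 held the highest BCL2A1 (9.18) and the lowest BCL2L2 (3.52) of the mixtures. BCL2L2 shares 813 exon bases with the readthrough gene BCL2L2-PABPN1, which stayed at or under 0.107 in the pure lines. It also shares 206 exon bases with PPP1R3E on the opposite strand. PPP1R3E held 5.34 in SUDHL4, 5.41 in K562, 3.57 in HL60 and 1.57 in THP1. The part of these overlaps in the BCL2L2 values was not tested.

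Ratios of reads within 1 library do not depend on the scaling between libraries. The BCL2L1 to BCL2 read ratio was 134 in K562 (103 to 177), against 0.217 in THP1 (0.203 to 0.231), 0.271 in HL60 (0.251 to 0.292) and 0.399 in SUDHL4 (0.376 to 0.422). K562 thus stood 336-fold above the highest of the other lines. For MCL1 to BCL2 the read ratio was 233 in K562 (180 to 307), against 2.43 in THP1, 2.97 in SUDHL4 and 1.91 in HL60, and K562 stood 78.3-fold above SUDHL4. MCL1 to BCL2L1 ordered the lines differently: it was 1.74 in K562, against 11.2 in THP1, 7.46 in SUDHL4 and 7.04 in HL60. THP1 had the highest ratio of the 10 libraries for that pair.

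Levels of different genes can be set side by side only per transcript length, since BCL2 has a longest transcript of 7.461 kb, MCL1 of 3.932 kb and BCL2L1 of 2.61 kb. Per kb, BCL2L1 over BCL2 was 383 in K562, 0.62 in THP1, 1.14 in SUDHL4 and 0.774 in HL60, so BCL2 was the more abundant of the pair in HL60 and THP1 and BCL2L1 in K562. SUDHL4 changed side between reads and reads per kb. With all exon bases of a gene as its length (exon union), the ratio was 476 in K562, 0.769 in THP1, 1.41 in SUDHL4 and 0.962 in HL60. HL60 was then close to equal, and mixture 4 changed side between the lengths (0.936 and 1.16).

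**Figure D2:**
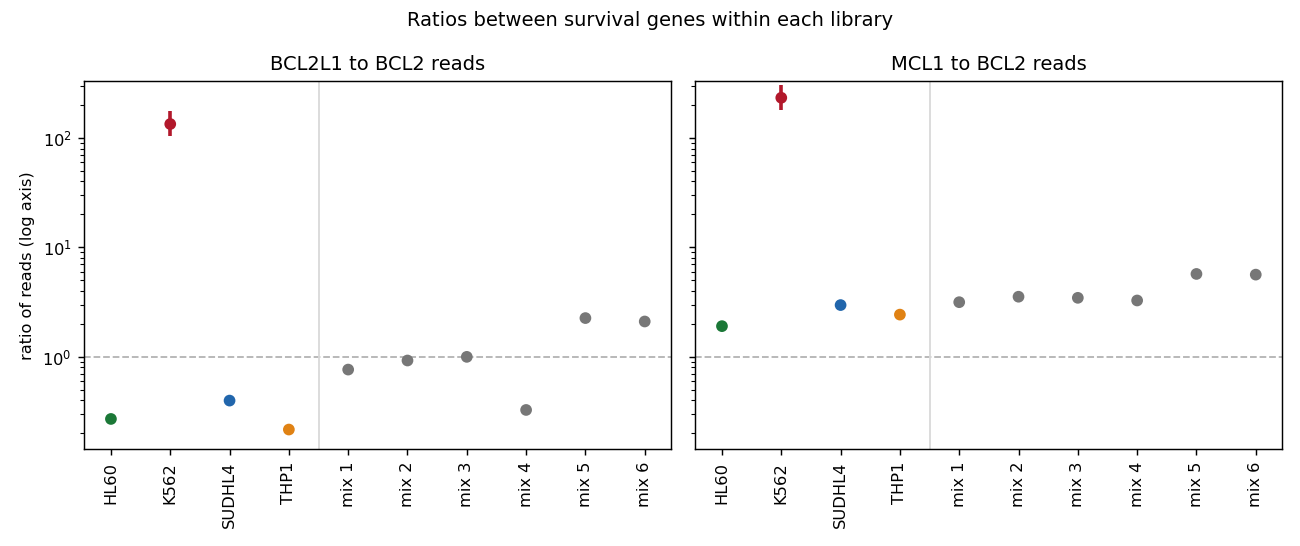
BCL2L1 to BCL2 (left) and MCL1 to BCL2 (right) read ratios on a log axis in the 4 pure lines and 6 mixtures. Points are single libraries, bars are exact 95% binomial intervals of the ratio (hidden where smaller than the point) and the dashed line marks equal reads; K562 stands at 134 and 233, above every mixture and every other line.

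The 5 survival genes were then expressed as shares of their summed reads per kb. MCL1 held the largest share in every library, with 63.3% in HL60, 52.4% in K562, 66.1% in SUDHL4 and 72.0% in THP1. The second place differed between lines. In K562 it was BCL2L1 with 45.5%, while BCL2 held 0.119%. BCL2 came second in HL60 with 17.5% and in THP1 with 15.6%, where BCL2L1 held 13.5% and 9.66%. SUDHL4 had BCL2L1 at 13.4%, BCL2 at 11.7% and BCL2A1 at 8.76%, the highest share of BCL2A1 in any library. The order of these genes in SUDHL4 depends on the length used. By exon union BCL2A1 (9.69%) came before BCL2 (8.67%), and without length BCL2 came second (22.3%) and BCL2L1 held 8.91%. The summed level per kb was 80.8 in HL60, 182 in K562, 168 in SUDHL4 and 140.3 in THP1. BCL2A1 held 3.18% in HL60 and 0.822% in THP1, and BCL2L2 held 2.51% in HL60, 1.94% in K562, 1.96% in THP1 and 0.00605% in SUDHL4.

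**Figure D3:**
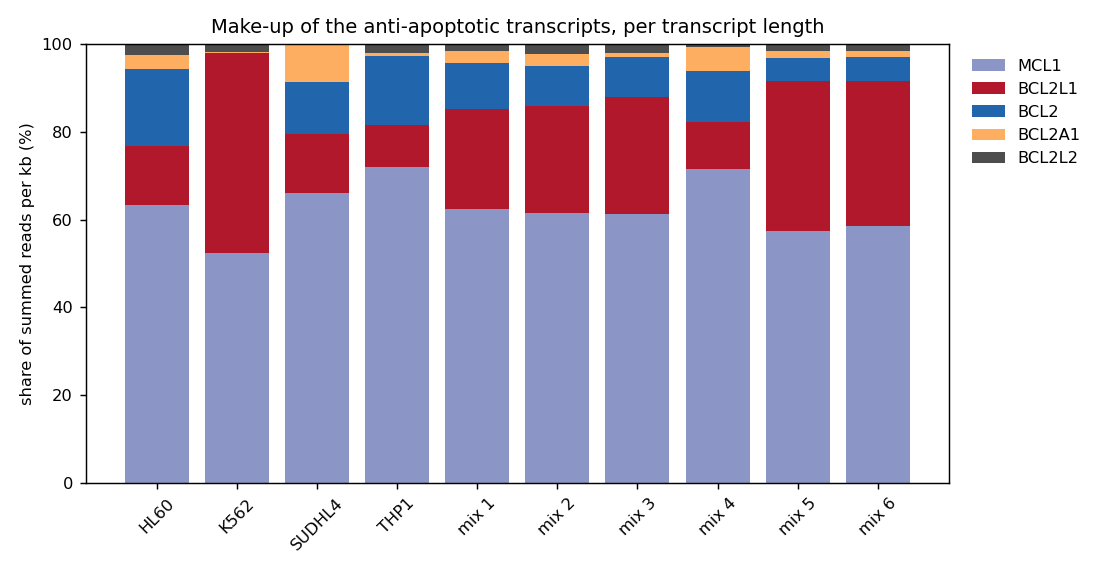
Share of MCL1, BCL2L1, BCL2, BCL2A1 and BCL2L2 in their summed reads per kb of longest transcript (vertical axis, %) in each of the 10 libraries. Each bar is 1 library; BCL2L1 takes 45.5% in K562 and 34.2% in mixture 5, and BCL2 takes 0.119% in K562.

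The pore formers varied least of the 10. BAX, which moves from the cytosol into the mitochondrial membrane, is on the plus strand of chromosome 19 (48954815 to 48961798) and held 51.0 normalised CPM in HL60, 32.3 in K562, 56.7 in SUDHL4 and 42.5 in THP1. BAK1, whose product sits in that membrane already, is on the minus strand of chromosome 6 (33572547 to 33580293) and held 70.0 in HL60, 40.8 in K562, 59.2 in SUDHL4 and 64.9 in THP1. K562 was lowest for both genes, and neither passed a call. Their ranges of 0.79 and 0.77 on the log2(value + 1) scale were wider than those of 14.3% and 13.1% of genes. The order of the upper lines is not firm: BAK1 was highest in HL60 as deposited and in THP1 under both other scalings, and HL60 and THP1 changed places for BAX with the scaling genes. The BAX to BAK1 read ratio, which orders the lines but not the genes, stayed between 0.655 in THP1 and 0.958 in SUDHL4 in the pure lines. Per kb of longest transcript it ran from 1.07 in THP1 to 1.56 in SUDHL4, and per kb of exon union from 0.560 in THP1 to 0.819 in SUDHL4, so which gene was the more abundant depends on the length used.

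Of the BH3-only genes, BCL2L11 spanned both directions. Its product BIM binds all of the main survival proteins. The gene is on the plus strand of chromosome 2 (111119378 to 111168447) and held 121 normalised CPM in SUDHL4, against 54.9 in HL60, 19.0 in K562 and 42.7 in THP1. SUDHL4 was 2.20-fold above HL60 (2.08 to 2.34), and K562 was 1.12 below THP1 on the log2(value + 1) scale. BCL2L11 shares 727 exon bases with MIR4435-2HG on the opposite strand, which held 45.6 in K562, 15.05 in THP1, 1.52 in SUDHL4 and 10.7 in HL60. The 2 genes thus had opposite extremes in K562 and SUDHL4. The sources used here do not say whether reads were counted by strand, and the part of the overlap in these values was not tested. BCL2L11 over MCL1 was 0.0508 by reads in K562 (0.0470 to 0.0549), against 0.108 in THP1, 0.276 in SUDHL4 and 0.273 in HL60.

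PMAIP1, which encodes NOXA, a partner chiefly of MCL-1 and BFL-1, is on the plus strand of chromosome 18 (59899948 to 59904306). SUDHL4 held 68.3 normalised CPM, against 28.01 in HL60, 16.7 in K562 and 15.5 in THP1. The fold of SUDHL4 over HL60 was 2.44 (2.25 to 2.65). K562 and THP1 differed by no more than counting error (1.07-fold, 0.953 to 1.21), the only neighbouring pair of lines among the 30 compared over the 10 genes for which that was so. Of the pure lines, SUDHL4 held the highest BCL2A1, PMAIP1, BCL2L11, BMF and BAD. It held the lowest BBC3 (0.202) and the lowest level of the family gene BID (49.96, against 57.0 to 117 in the others).

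BBC3, which encodes PUMA, was a low gene. It is on the minus strand of chromosome 19 (47220822 to 47232766) and held 6.45 normalised CPM in K562, against 2.64 in THP1, 0.202 in SUDHL4 and 0.687 in HL60. K562 was 2.44-fold above THP1 (1.90 to 3.18) and 1.03 above it on the log2(value + 1) scale, just past the call, and it did not pass when the libraries were set to equal levels of the 16 scaling genes. Among the 3 BH3-only genes per kb, BBC3 took 22.3% in K562, 1.45% in HL60, 0.171% in SUDHL4 and 8.14% in THP1, while PMAIP1 took between 45.4% and 60.2% in the 4 lines. These shares depend on the length used. Without length, PMAIP1 took 25.5% to 39.6%, BCL2L11 took 45.1% to 70.2% and BBC3 took 15.3% in K562. By exon union BBC3 took 16.4% in K562. K562 had the lowest summed BH3-only level per kb of the pure lines, 15.7, against 17.6 in THP1, 58.3 in SUDHL4 and 25.2 in HL60.

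The rest of the family gave 11 of 13 listed genes in the table, of which 8 reached 5 normalised CPM in a pure line. Of these 8, 1 was called higher and 3 were called lower, beside 28.5% and 16% of all genes. BMF, a BH3-only gene linked to the cytoskeleton, held 38.3 in SUDHL4 and 1.14 in K562, against 12.1 in HL60 and 14.8 in THP1, and passed both calls. BAD, a BH3-only gene under growth factor control, held 4.45 in K562, against 18.0 to 25.5 in the other lines. BNIP3L, a mitophagy receptor, was lower in HL60 at 40.0, against 85.9 to 179 in the others. BIK passed no call but held 0.0424 in K562, a single read, against 10.5 in THP1, 3.32 in SUDHL4 and 6.65 in HL60. The median range of these 8 genes was 1.98 on the log2(value + 1) scale.

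Downstream of the pore, 11 of 11 listed release and apoptosome genes were measured, with a median range of 1.36. CASP9, the initiator caspase of the apoptosome, held 44.3 in K562, against 11.5 in THP1, 13.3 in SUDHL4 and 5.41 in HL60, and was the only gene of the list called higher (1 of 11, beside 28.5% of all genes). CYCS, which encodes cytochrome c, was lower in THP1 at 265, against 673 to 799.7 in the others. VDAC2, a channel that binds BAK, was lower in THP1 at 91.3, against 254 to 549.7 in the others. These were the 2 calls for lower among the 11 genes, beside 16% of all genes. The adaptor APAF1 stayed between 14.6 and 28.3.

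**Figure D4:**
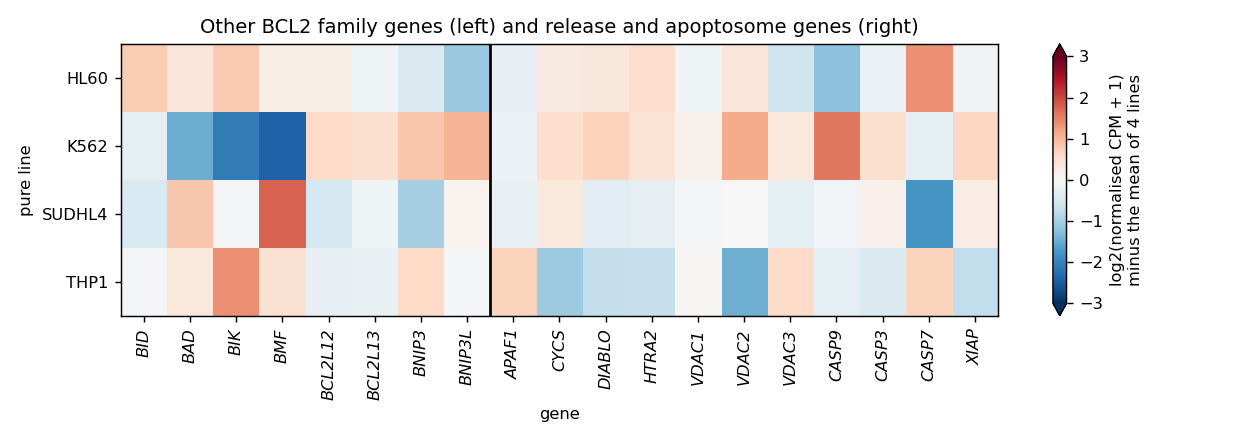
Heat map of the 8 other BCL2 family genes (left of the line) and 11 release and apoptosome genes (right) in the 4 pure lines, as log2(normalised CPM + 1) minus the mean of the 4 lines. Red is above and blue is below that mean; CASP9 is red in K562 (44.3 normalised CPM), BMF is red in SUDHL4 (38.3) and blue in K562 (1.14).

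All 15 listed regulators of the family were measured, and 7 were called higher in 1 line and 1 lower, beside 28.5% and 16% of all genes. CDKN1A, a cell cycle inhibitor, was higher in THP1 (43.4), against 1.59 to 5.94 normalised CPM in the other lines, and the transcription factor TP73 was higher there too (15.996), against 0.0551 to 2.56. STAT5A, a cytokine-activated factor that can act on BCL2L1, held 454 in K562, against 12.1 in THP1, 9.46 in SUDHL4 and 7.16 in HL60. DDIT3, a stress factor that can raise BCL2L11, was higher in K562 (26.8), against 3.54 to 9.92 in the others. ATF4 (618) and MYC (1292) were higher in HL60, and E2F1 was lower in K562 (15.7), against 52.2 to 100.2 in the others. The median range of the regulators was 2.12.

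Likeness to each of 4 survival genes was the root mean square difference of log2(value + 1), centred on its mean over the 10 libraries, and is a description of libraries of which 6 are blends of the other 4. The closest genes to BCL2 were DIAPH2 (0.23), EVI2B (0.26) and NCKAP1L (0.26). For BCL2L1 they were SAMD4A (0.11), MAPK8IP1 (0.13) and CBS (0.16). SAMD4A and MAPK8IP1 were low genes, whose differences the added 1 narrows. They held 8.03 and 6.42 in K562 and at most 1.12 and 1.52 in the other lines. CBS held 216 in K562, against 55.3 in THP1, 71.4 in SUDHL4 and 31.2 in HL60. INTS8, PABPC1 and DCAF10 lay closest to MCL1 (0.10 each), and MBD2 (0.16), PARD6A (0.25) and PLEKHA2 (0.26) closest to BCL2A1.

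The mixtures served to ask whether the family followed the make-up of each blend. RNA shares were estimated from 100 signature genes per line, none of them among the listed genes. HL60, K562, SUDHL4 and THP1 gave 26.0%, 22.5%, 22.5% and 28.9% of the RNA of mixture 1 and 48.9%, 20.4%, 6.74% and 24.0% of mixture 2. Mixture 3 was estimated without SUDHL4 (25.4% HL60, 39.4% K562 and 35.2% THP1), and mixture 4 with 0.0239% K562 (10.4% HL60, 58.2% SUDHL4 and 31.3% THP1). Mixtures 5 and 6 were estimated at 53.3% and 53.0% K562, 34.5% and 27.8% THP1, 11.8% and 11.6% SUDHL4, and 0.339% and 7.68% HL60. In bulk RNA, fewer cells of a line and less RNA per cell cannot be told apart.

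The printed shares are percents of the summed fitted coefficients of a mixture. The coefficients themselves, without that rescaling, gave a predicted level for each gene in each mixture. Their sum was lowest in mixture 3 (0.905) and highest in mixture 5 (0.975), so the printed shares would give higher predictions. A gene counted as off its prediction where its observed log2(value + 1) lay 0.5 or more from the predicted one and either level was 5 or more. Of 60 pairs of a gene and a mixture, 50 had the needed level and 2 were off, beside 6.36% of such pairs over all genes. Both were above, as were 2.97% of all such pairs, and none was below, as were 3.39%. The median absolute difference was 0.12 for the 10 genes and 0.14 for all genes. BCL2L1 followed its prediction within 0.15 in all 6 mixtures, with 145 observed and 131 predicted in mixture 5, and K562 was the predicted source of 85.7% of it there. BCL2 in the same mixture, at 64.1 observed and 73.1 predicted, had 75.2% of its predicted level from THP1 and 1.16% from K562. The K562 RNA of mixtures 5 and 6 thus came with BCL2L1 to BCL2 read ratios of 2.26 and 2.10, against 1.79 and 1.86 predicted. Mixture 4, almost without K562, had 0.327 observed and 0.327 predicted. The ratio was 0.765 observed and 0.735 predicted in mixture 1, 0.926 observed and 0.697 predicted in mixture 2, and 1.00 observed and 1.23 predicted in mixture 3, the one mixture where it lay below its prediction.

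BBC3 was the gene that left its prediction. It held 7.30 in mixture 5 against 4.27 predicted and 7.19 in mixture 6 against 4.11 predicted, differences of 0.65 and 0.68 on the log2(value + 1) scale. Both observed levels also exceeded the highest pure line, K562 at 6.45, with intervals of 6.27 to 8.40 and 6.29 to 8.16 that include it. In mixtures 1 and 2, below the level needed for the count, BBC3 held 4.84 and 4.57 against 2.36 and 2.20 predicted. Mixture 3 held 3.64 against 3.30 predicted, and mixture 4 held 0.513 against 0.983 predicted. The median difference over the 6 mixtures was 0.67, which takes in mixtures 1 to 4, below the level needed for the count. A median of at least 0.5 was found in 1.03% of genes with 5 in a pure line. Those genes were not matched to BBC3 in level or base composition.

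BAX lay above its prediction in 5 of 6 mixtures, as did 25% of genes in at least 5. Mixture 2 held 59.8 against 43.6 predicted, 1.37-fold, and mixture 6 held 49.2 against 38.3. Mixture 3 went the other way, with 31.3 against 36.8. BCL2L11 lay below its prediction in 5 of 6, with 35.1 against 47.0 predicted in mixture 2 and 28.8 against 39.1 in mixture 6. None of its pairs counted as off, and the share of all genes below prediction that often was not computed. BCL2 held 74.0 against 96.6 predicted in mixture 2 and 93.8 against 76.8 in mixture 3. In all, 5 of the 60 pairs lay outside the range of the pure lines (BBC3 in mixtures 5 and 6, BAX in mixtures 2 and 3, MCL1 in mixture 4), beside 6.78% of pairs over the genes with 5 in a pure line.

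**Figure D5:**
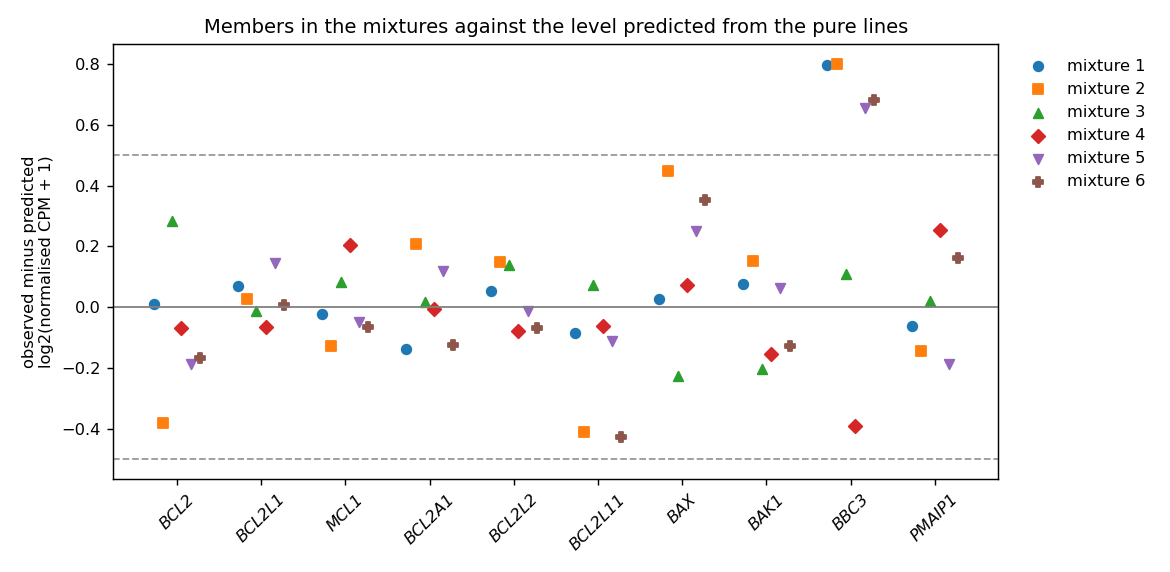
Observed minus predicted level of each of the 10 genes in the 6 mixtures, on the log2(normalised CPM + 1) scale. Each symbol is 1 mixture and the dashed lines mark a difference of 0.5; BBC3 in mixtures 1, 2, 5 and 6 is above the upper line, and only mixtures 5 and 6 had the level of 5 that the count needs.

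Transcript length and base composition moved with the departures of all genes, to a different degree in each mixture. The 25% of genes with the shortest transcripts (up to 2326 bases) had median differences of 0.26 in mixture 2, 0.17 in mixture 5, 0.11 in mixture 6, -0.04 in mixture 3, 0.07 in mixture 1 and 0.13 in mixture 4. The 25% with the longest (from 5389 bases) had -0.29, -0.24, -0.13, 0.09, -0.09 and -0.04 in the same mixtures. The 25% with the highest G and C share (from 55.9%) had 0.19, 0.17, 0.12, -0.07, 0.10 and -0.08, so in mixture 4 short transcripts lay above prediction and those rich in G and C below. The differences of BBC3 in the same order of mixtures were 0.80, 0.65, 0.68, 0.11, 0.80 and -0.39. Only mixtures 5 and 6 had the level of 5 for that gene. BBC3 has a transcript of 1.838 kb with 69.7% G and C and BAX one of 1.358 kb with 58.9%, whereas BCL2L11 has 5.231 kb with 45.7% and BCL2 7.461 kb with 45.6%. Their median differences over the 6 mixtures were 0.67, 0.16, -0.10 and -0.12. BAK1 (2.212 kb, 58.8%), PMAIP1 (1.948 kb, 37.2%) and BCL2A1 (1.033 kb, 39.9%) are short too. Their medians were -0.03, -0.02 and 0.01. The part of length, base composition and library kit in the values of these genes was not tested.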

How the data were processed

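The 10 RNA libraries, 1 per group, were grouped by their titles. Per the submitters' processing notes, the genome build was hg19 and the tools included featureCounts, HISAT2 and Cell Ranger ARC 2.0.0; the sources used here name no annotation. The authors deposited signal values on the scale of counts per 1000000 reads (normalised CPM); each value above 0 is a read number plus 0.5 times a constant of its column, and recovered reads were whole within 0.01 for 100% of values. Columns do not sum to 1000000, and the method of rescaling is not given. The design had assumed plain CPM, and its rules were applied unchanged. Calls, read ratios (Clopper-Pearson), levels (Poisson), shares per kb of the longest GENCODE 29 transcript and predicted mixture levels (non-negative least squares) were computed in Python 3.11.15 with numpy 2.4.6, scipy 1.17.1 and pandas 2.3.3 and checked on simulated data. Positions are GRCh38, not the authors' build. All 10 genes are named, with called genes and up to 3 others of each further list and the 3 nearest genes of 4 survival genes. Members and lists were chosen with earlier results of these data known. Alternatives covered scaling, pseudocount, level minimum, fold, length and signature genes. The values of 1 called regulator are not reported here.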

Additional observations from a re-analysis of the deposited data

How the results depend on the processing

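No paired analysis was possible because every group holds 1 library, and for the same reason no library could be left out of a group. The number of the 10 genes called higher in 1 line was 4 or 5 under both other scalings, a pseudocount of 0.5 and no minimum level. Those settings called 22.0% to 29.4% of all genes higher. The count was 3 of 7 at a minimum level of 20 (24.96% of all genes). At a step of 2 on the log2 scale it was 1 of 10 (BCL2A1), under the 14.2% of all genes. Fewer genes can pass either by construction. Calls for lower were 2 of 10 at that step (6.32% of all genes) and 2 of 7 at the minimum level of 20 (12.4%). They were 3 or 4 of 10 at the remaining settings (12.1% to 16.8%). MCL1 in HL60 was added by library totals and BCL2A1 in K562 by no minimum level. Library totals moved the median of all genes by -0.15 in HL60 and 0.14 in mixture 3. The scaling genes moved it by -0.17 in HL60, 0.15 in SUDHL4, 0.20 in THP1, -0.13 in mixture 2 and 0.11 in mixture 3.

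The 336-fold and 78.3-fold excess of the K562 ratios was 333 and 77.6 with 0.5 added to the reads. Division by length turned BCL2L1 to BCL2 to above 1 in SUDHL4 (1.14), mixture 1 (2.19) and mixture 2 (2.65). Without length, the MCL1 share was 58.3% in HL60, 62.0% in K562 and 65.4% in THP1; K562 was then no longer the lowest line. With exon unions as length, an alternative chosen after seeing the data, it was 67.9% in HL60, 55.7% in K562, 69.4% in SUDHL4 and 76.4% in THP1. Gene-mixture pairs off prediction were 4 when signature genes were not divided by their highest pure level (BCL2 and BCL2L11 in 1 mixture each, besides BBC3; 8.06% of all pairs), 0 at a difference of 1 (0.445% of all pairs) and 4 of 59 at a minimum level of 1 (7.08%), the last, like the equal level of scaling genes (2), chosen after seeing the data. The BBC3 median stayed between 0.60 and 0.72.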

Other observations

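Outside the 10 genes, a few of the listed genes also left their predicted level in the mixtures. Among the other BCL2 family genes, 3 of 48 pairs of a gene and a mixture were above prediction, beside 2.97% of all pairs: BAD in mixture 2 (26.6 observed, 15.3 predicted) and mixture 5 (21.1 observed, 11.4 predicted), and BIK in mixture 5 (6.63 observed, 3.95 predicted). XIAP, the caspase inhibitor, was below prediction in mixtures 1, 2 and 5, at 11.96, 8.85 and 11.6 observed and 18.8, 18.0 and 21.7 predicted, the 3 pairs of 66 that were off among the release and apoptosome genes, beside 3.39% of all pairs below prediction.

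Of the regulators, 8 of 88 pairs were off, 5 above and 3 below, beside 6.36% of all pairs. MDM2, a ubiquitin ligase, was above prediction in mixtures 2, 4, 5 and 6, with 77.7 observed and 42.98 predicted in mixture 4, and TP73 in mixture 2. HUWE1, a ligase that acts on MCL-1, was below prediction in mixtures 2, 5 and 6, with 241 observed and 469 predicted in mixture 2. The longest transcripts of XIAP and HUWE1 run to 8.591 and 14.796 kb and those of BAD and BIK to 1.157 and 0.953 kb, while that of MDM2 runs to 12.633 kb. The part of transcript length in these values was not tested.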
